A study of Mus musculus with 18 samples.

Results

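Clustered protocadherin transcripts were examined in single inspiratory neurons of the mouse preBötzinger complex (preBötC), the brainstem site that generates breathing rhythm. Genes were chosen by symbol (Pcdha or Pcdhb with a number, Pcdhac1, Pcdhac2, and Pcdhga, Pcdhgb or Pcdhgc with a number), and annotated pseudogenes were left out, which removed Pcdhgb8. This left 56 of the 55367 genes in the deposited table: 13 of the alpha cluster, 22 of the beta cluster and 21 of the gamma cluster. Each gene is called an isoform here, and an isoform was counted as found in a neuron when 10 or more fragments (sequenced read pairs assigned to the gene) were counted.

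The 17 neurons were recorded in slices from newborn Dbx1;Ai148 mice at postnatal day 0 to 2, the offspring of Ai148 mice (C57Bl/6J) and Dbx1cre mice (mixed C57Bl/6J;CD1). In these mice, Cre recombinase from the Dbx1 locus switches on the calcium indicator GCaMP6f, so that all groups carried the same alleles, and all neurons derived from Dbx1-expressing precursors and were picked for rhythmic fluorescence. Electrical recording sorted them into Type-1 (n = 7, delayed excitation without a sag potential), Type-2 (n = 9, a sag potential without delayed excitation) and Unknown (n = 1, Neuron 8). Cytoplasm was then drawn into the pipette and sequenced (Patch-Seq), and neurons keep the numbers of their labels.

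Clustered protocadherins are cell surface adhesion proteins that bind the same isoform on a facing membrane, and they are known for letting a neuron tell its own branches from those of other neurons. The genes lie in a row on one chromosome. Each variable exon has its own promoter, and in most neurons a few promoters per cluster are switched on, apparently at random and largely one allele at a time, through CTCF, cohesin and DNA methylation. Alpha and gamma variable exons are spliced to exons shared by their whole cluster, whereas beta genes consist largely of a variable exon alone. The C-type isoforms at the ends of the alpha and gamma clusters (Pcdhac1, Pcdhac2, Pcdhgc3, Pcdhgc4 and Pcdhgc5) are regulated differently and are often present in many cells of a type.

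In the GRCm38 build the 56 isoforms lie on the plus strand of chromosome 18, between positions 36930184 and 37841873 (GENCODE M21). The alpha genes end at 37187661, the beta genes run from 37264938 to 37524479, and the gamma genes start at 37661793. The deposited lengths of all 56 genes were equal to the summed exons of this annotation. Bases that belong to the exons of no other annotated gene, on either strand, made up 7.0% to 51.4% of the exonic length of alpha isoforms (median 46.4%), 36.5% to 100% in the beta cluster (median 100%) and 0% to 68.5% in the gamma cluster (median 54.8%). How fragments of the shared exons were counted is not given in the sources used here. Pcdhga1, which has the shared gamma exons, had 0 fragments in every neuron, also in Neuron 18 with 7542 of Pcdhgc4. Pcdha1 had at most 1 fragment in any neuron, although Pcdha3 had 278 in Neuron 4. Fragments of the shared exons were thus not counted for every gene that holds them. Levels per length of alpha and gamma isoforms are therefore not directly comparable with those of beta isoforms. The Pcdha11 row pools 2 annotated genes of that name and has no separate Pcdha10 beside it. Read-through genes that span the clusters (Gm37013, Gm37388, Gm42416) had 0 fragments in every neuron. Other overlapping genes had fragments, such as BC037039, which overlaps Pcdhgc3, with 179 in Neuron 3 and 105 in Neuron 15, and Gm10544, which overlaps Pcdha11, with 77 in Neuron 12 and 46 in Neuron 13.

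Total fragments per neuron ranged from 2280477 (Neuron 12) to 13762335 (Neuron 17), and 10434 to 18174 genes had at least 1 fragment. In these libraries 10 fragments corresponded to 0.727 to 4.39 CPM (counts scaled to the library total), and a count of 0 allows up to 3 fragments, or 0.218 to 1.32 CPM, counting error only. Of 5 general neuron markers, at least 4 had 1 fragment or more in every neuron. Slc17a6, the vesicular glutamate transporter expected in Dbx1-derived neurons, was at most 246 FPKM (fragments scaled by gene length and library total). It was at 0 in Neuron 13, where all 4 inhibitory markers had fragments, at 130 FPKM in sum. Inhibitory markers had a median of 2.97 FPKM in Type-1 and 25.3 FPKM in Type-2 neurons. Transcripts of 14 microglial markers were present in all libraries, with 2 to 14 of the 14 at 1 fragment or more. Their summed level was 35.4 to 11188 FPKM in Type-1 neurons (median 807) and 0.103 to 10567 FPKM in Type-2 neurons (median 424). It was above 4000 FPKM in Neurons 4, 7, 8, 9, 16 and 17, and these neurons held 6, 0, 6, 2, 3 and 3 isoforms. Astrocyte markers summed to 109 to 2380 FPKM in all libraries, blood markers to as much as 6131 FPKM (Neuron 8) and oligodendrocyte lineage markers to as much as 1712 FPKM (Neuron 3), whereas endothelial markers did not exceed 15 FPKM. Blood markers had a median of 94.1 FPKM in Type-1 and 0.863 FPKM in Type-2 neurons. The part of these RNAs in the isoform counts was not tested.

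Individual neurons held few isoforms, and of the 56 isoforms 26 were held by 1 or 2 neurons, 8 by more and 22 by none. A neuron had 4.53 ± 2.65 isoforms (mean ± SD, n = 17), with a median of 4. The number was 10 in Neuron 1, 8 in Neurons 11 and 14, 6 in Neurons 4, 8, 12 and 18, 5 in Neuron 13 and 4 in Neuron 3. It was 3 in Neurons 5, 15, 16 and 17, 2 in Neurons 2, 6 and 9, and 0 in Neuron 7. Neuron 7 had 11512121 fragments, which put it among the deeper libraries, and it carried 10567 FPKM of microglial markers against 433 FPKM of the 5 neuron markers. Neurons 17 and 9, with similar levels (11188 and 9233 FPKM of microglial markers, 368 and 370 FPKM of neuron markers), held 3 and 2 isoforms.

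**Figure D1:**
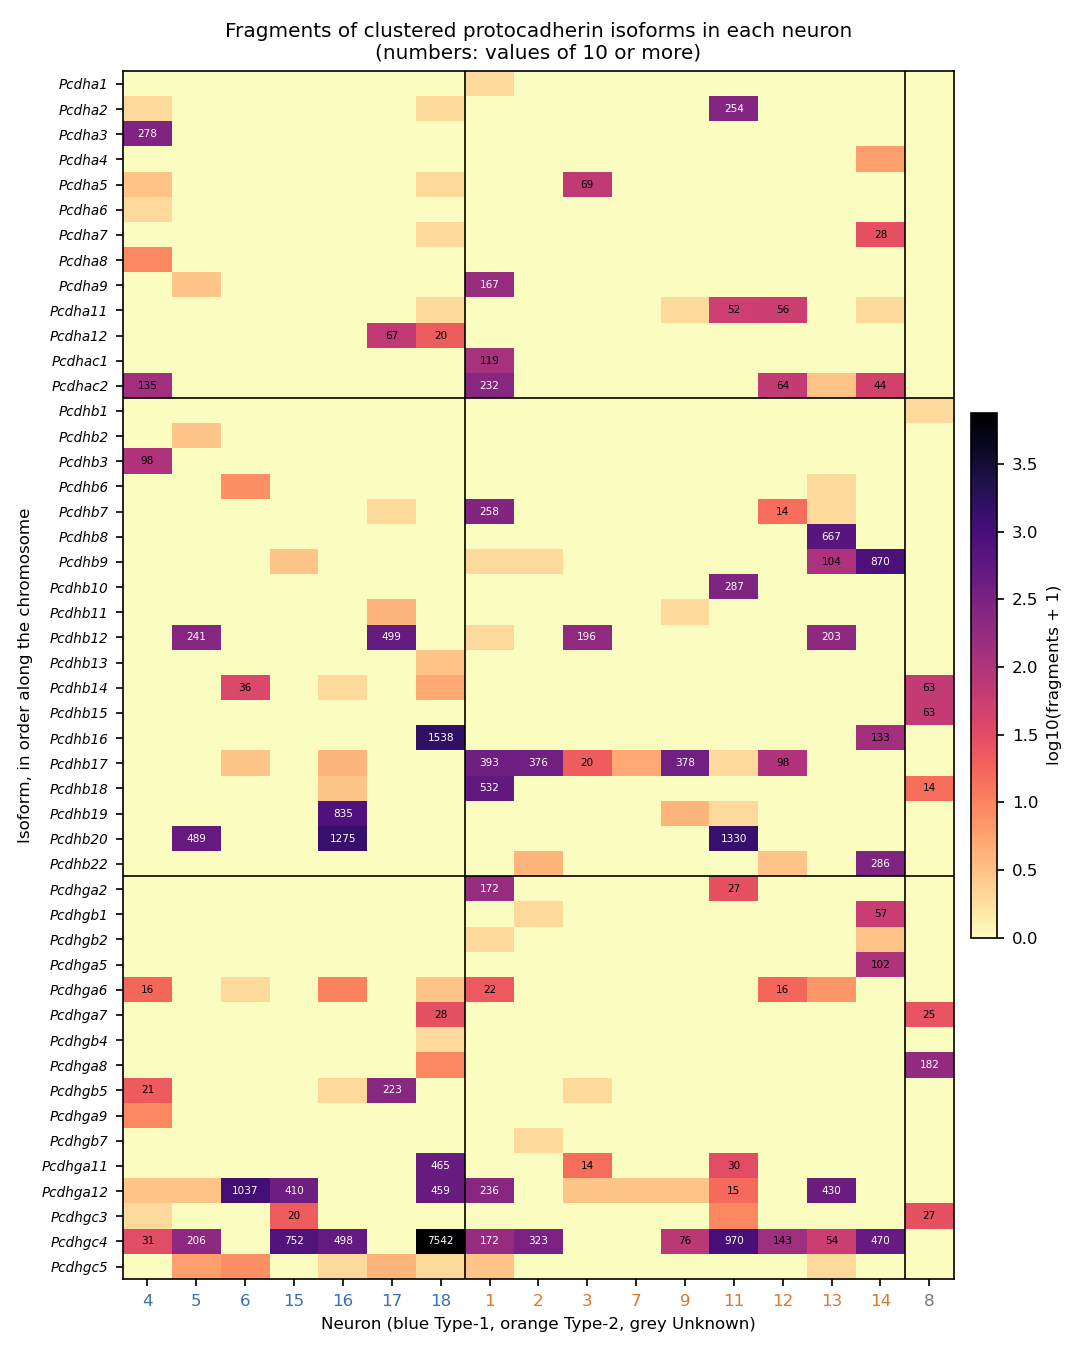
Fragments of the 48 isoforms with at least 1 fragment (rows, in order along the chromosome, lines between the alpha, beta and gamma clusters) in each of the 17 neurons (columns, Type-1, Type-2, then Unknown), coloured by log10(fragments + 1), with counts of 10 or more printed. Most cells of the plot are empty, and Pcdhgc4 is the isoform with counts in the most columns.

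Most values were 0. Of the 952 values (56 isoforms in 17 neurons), 810 were 0, 65 lay between 1 and 9, and 77 were 10 or more. The 77 values had a median of 167 fragments and ranged from 14 to 7542, with 16 of them under 30. The values nearest the limit were 14 above it and 9 below it. Isoforms were found in 8.09% of values, against 16.7% over all genes of the table. Of the values above 0, 54.2% were 10 or more, against 70.2% over all genes. Of the 65 low values, 42 belonged to isoforms found in another neuron. The paper states that amplifying the RNA of 1 neuron produces false zeros, which its checks could not separate from true absence. In these libraries Ctcf was found in 13 of 17 neurons and the cohesin gene Smc1a in 14. How many zeros among the isoforms are lost transcripts was not tested.

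Of the 56 isoforms, 34 were found in at least 1 neuron, 14 had only low counts (highest 8) and 8 had 0 fragments in all 17 neurons. The isoforms at 0 were Pcdhb4, Pcdhb5, Pcdhb21, Pcdhga1, Pcdhga3, Pcdhga4, Pcdhgb6 and Pcdhga10. Pcdhga10 has no exonic base of its own in the annotation, so a count of 0 there is less informative. Among the 34 isoforms found, 15 were found in exactly 1 neuron and 11 in 2, which is 76.5% in 1 or 2 neurons, against 32.8% of the 21898 genes found in any neuron. Another 3 isoforms were found in 3 neurons and 5 in 4 or more. This breadth was not tested between genes, since isoforms of the same neuron share a library.

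**Figure D2:**
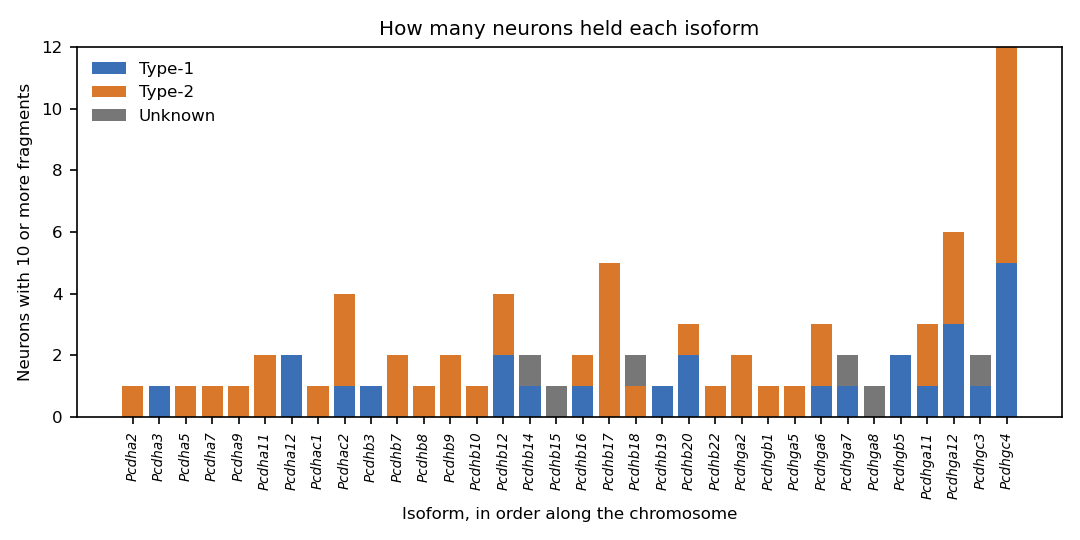
Number of neurons with 10 or more fragments (bar height) for each of the 34 isoforms found (x axis, in order along the chromosome), divided into Type-1, Type-2 and Unknown neurons. Pcdhgc4 reaches 12 neurons, Pcdhga12 reaches 6, and 26 isoforms reach 1 or 2.

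The clusters differed in how often they contributed. At least 1 gamma isoform was found in 16 of 17 neurons, 1 beta isoform in 15 and 1 alpha isoform in 8. The mean number per neuron was 2.06 ± 1.30 for gamma, 1.65 ± 0.996 for beta and 0.824 ± 1.01 for alpha isoforms (SD, n = 17). In 8 neurons, 3 Type-1 and 5 Type-2, isoforms of all 3 clusters were present together. The part of the exonic length held by no other gene had a median of 46.4% in alpha, 54.8% in gamma and 100% in beta genes. How far this part bears on the number of alpha isoforms found was not tested. Leaving aside the C-type isoforms, gamma A isoforms were found in 11 neurons and gamma B isoforms in 3.

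**Figure D3:**
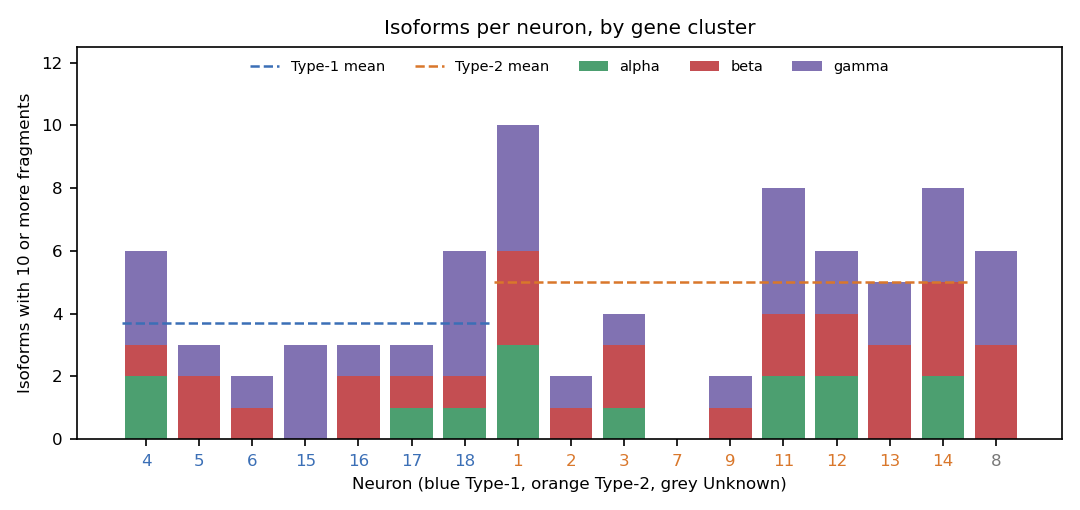
Isoforms with 10 or more fragments in each neuron (bar height), stacked by alpha, beta and gamma cluster, with the mean of each type as a dashed line (3.71 for Type-1, 5 for Type-2). Neuron 1 has the highest bar at 10 and Neuron 7 has none.

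In FPKM, which divides by the full exonic length, beta transcripts gave the highest summed level in 10 of the 16 neurons with an isoform, gamma in 5 and alpha in 1. With only the bases outside the exons of other genes as length, a choice made after seeing the data, these numbers were 9, 6 and 1. Summed beta levels ranged from 0.0746 to 92.1 FPKM (median 11.1), gamma levels from 0.0261 to 164 FPKM (median 11.1) and alpha levels from 0 to 16.8 FPKM (median 0.0537). Within a cluster a single isoform usually accounted for most of the signal. The strongest isoform took a median of 80.6% of the cluster's summed FPKM in the 15 neurons with a beta isoform (range 39.9% to 100%), 88.4% in the 16 with a gamma isoform (34% to 99.3%) and 76.2% in the 8 with an alpha isoform (42.5% to 100%). The strongest beta isoform was one of 10 different genes. Neuron 1 was spread most evenly, with less than 50% of each cluster in its strongest isoform.

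Several neurons showed a simple pattern of found isoforms, in which lost transcripts were not told apart from isoforms that were not expressed. Neuron 17 (Type-1) had 1 isoform per cluster, namely Pcdha12 at 67 fragments, Pcdhb12 at 499 and Pcdhgb5 at 223. Neurons 2 and 9 (both Type-2, both recorded at postnatal day 2) had the same set of 2 isoforms, Pcdhb17 and Pcdhgc4. Pcdhb17 had 376 fragments in Neuron 2 and 378 in Neuron 9, whereas Pcdhgc4 had 323 and 76. No other set occurred in more than 1 neuron, and 8 neurons held at least 1 isoform found nowhere else. These 2 libraries differed in other transcripts, with microglial markers at 0.103 FPKM in Neuron 2 and 9233 FPKM in Neuron 9.

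The C-type isoforms did not behave alike. Pcdhgc4, which is required for the survival of some neurons during development, was found in 12 neurons, 5 of 7 Type-1 and 7 of 9 Type-2. Its fragments in Type-1 Neurons 4, 5, 6, 15, 16, 17 and 18 were 31, 206, 0, 752, 498, 0 and 7542. In Type-2 neurons its lowest, median and highest levels were 0, 5.57 and 21.9 FPKM. It was exactly 0 in the 5 neurons where it was not found (Neurons 3, 6, 7, 8 and 17), with no value between 1 and 9.

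Both types thus had neurons with and without Pcdhgc4, and their ranges overlapped. The 7542 fragments in Neuron 18 (145 FPKM) were the highest value of any isoform. In log2(FPKM + 1), Pcdhgc4 was 2.63 ± 2.59 in Type-1 and 2.24 ± 1.67 in Type-2 neurons (SD), and the exact two-sided permutation test of the difference (-0.39) gave p = 0.726 (adjusted p = 1). Without Neuron 18 the difference was 0.37, in the other direction.

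Pcdhac2 was found in 4 neurons, Type-1 Neuron 4 (135 fragments) and Type-2 Neurons 1, 12 and 14 (232, 64 and 44 fragments), and had 2 fragments in Neuron 13. Pcdhac1, the neighbouring isoform, was found only in Neuron 1, at 119 fragments, and had 0 in the other 16. Pcdhgc3, which restrains Wnt signalling and shapes dendrites in the cortex, was found in Neurons 8 and 15 at 27 and 20 fragments (the overlapping BC037039 had 0 and 105), with 1 fragment in Neuron 4 and 8 in Neuron 11. Pcdhgc5 was found in no neuron, although 7 neurons had 1 to 7 fragments of it. The C-type isoforms therefore ranged from 0 to 12 neurons, and 13 neurons held at least 1 of the 5.

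**Figure D4:**
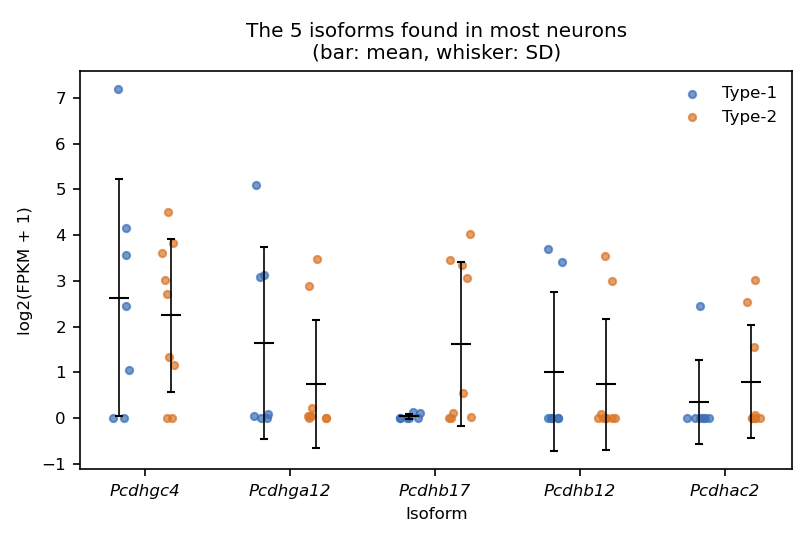
Level in log2(FPKM + 1) of the 5 isoforms found in most neurons, with each Type-1 (n = 7, blue) and Type-2 (n = 9, orange) neuron as a point, the mean as a bar and the SD as a whisker. Pcdhb17 is below 0.2 in every Type-1 neuron, and for the other 4 isoforms the highest points of both types lie far above 0.

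Of the other gamma isoforms, Pcdhga12 was the most widespread, with 6 neurons. It had 1037, 410 and 459 fragments in Type-1 Neurons 6, 15 and 18 and 236, 15 and 430 in Type-2 Neurons 1, 11 and 13. A further 5 neurons had 2 fragments each. High values occurred in both types, and the difference in log2(FPKM + 1) was -0.89 (exact permutation test, p = 0.373, adjusted p = 1).

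Pcdhga11, the neighbour of Pcdhga12 apart from the pseudogene left out, was found in Type-1 Neuron 18 (465 fragments) and Type-2 Neurons 3 and 11 (14 and 30). In Neuron 18 its count was close to the 459 fragments of Pcdhga12. Pcdhga6 was found in Neurons 1, 4 and 12 but at no more than 22 fragments. Pcdhgb5 was found in Type-1 Neurons 4 and 17 only, at 21 and 223 fragments, with 1 fragment in each of Neurons 3 and 16.

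In the beta cluster, Pcdhb17 had the lowest p between the types of the 48 isoforms with a fragment, in the exact test and in edgeR. Its fragments in Type-2 Neurons 1, 2, 3, 7, 9, 11, 12, 13 and 14 were 393, 376, 20, 4, 378, 1, 98, 0 and 0. In Type-1 neurons it had 2 fragments in Neuron 6, 3 in Neuron 16 and 0 in the other 5. It was 0 in the Unknown neuron. Among Type-2 neurons 5 of 9 held it, and among Type-1 neurons 0 of 7, although the ranges overlapped, since 4 Type-2 neurons had 4 fragments or fewer. The gene (positions 37484795 to 37489454) shares no exonic base with another annotated gene.

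In log2(FPKM + 1), Pcdhb17 was 1.62 ± 1.79 in Type-2 and 0.03 ± 0.06 in Type-1 neurons (SD). The exact two-sided permutation test of this difference (1.59) gave p = 0.0328, and after adjustment over all 32628 genes p was 1. In edgeR's quasi-likelihood test the log2 fold change was 7.59 ± 2.19 (SE) and the Benjamini-Hochberg adjusted p was 0.183, so the isoform was not called at an adjusted p under 0.01. DESeq2 with default settings did call it, with a log2 fold change of 7.55 and an adjusted p of 0.00192. Leaving out Neuron 1, 2, 9 or 12 raised the exact p to 0.101.

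Pcdhb17 was not evenly spread over days. It was found in 2 of 3 Type-2 neurons at postnatal day 1, 3 of 4 at day 2 and 0 of 2 at day 0, and Type-1 neurons lacked it on each day (n = 3, 3 and 1). With day as a factor in edgeR the log2 fold change was 7.04 ± 2.65 (adjusted p = 0.686). Without the 6 neurons high in microglial markers it was 7.92 ± 3.05 (adjusted p = 0.431).

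Other beta isoforms reached high levels in a few neurons of either type. Pcdhb12 was found in Type-1 Neurons 5 and 17 (241 and 499 fragments) and Type-2 Neurons 3 and 13 (196 and 203). Pcdhb20 was found in Type-1 Neurons 5 and 16 (489 and 1275) and Type-2 Neuron 11 (1330). The highest beta level was that of Pcdhb9, with 870 fragments in Neuron 14 (74.2 FPKM) and 104 in Neuron 13, both Type-2 at day 0. Pcdhb16 reached 1538 fragments in Neuron 18 (Type-1) and 133 in Neuron 14 (Type-2). Both types were represented among the neurons with Pcdhb12, Pcdhb20 and Pcdhb16.

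Alpha isoforms outside the C-type were found in 8 neurons, and 7 of these held exactly 1. Pcdha3 had 278 fragments in Neuron 4 and 0 elsewhere. Pcdha2 had 254 in Neuron 11, Pcdha9 had 167 in Neuron 1, Pcdha5 had 69 in Neuron 3 and Pcdha7 had 28 in Neuron 14. Pcdha12 was found in Neurons 17 and 18 (67 and 20 fragments), both Type-1. Pcdha11 was found in Neurons 11 and 12 (52 and 56), both Type-2. The overlapping pseudogene Gm18150 had 190 and 54 fragments in those same neurons, and Gm10544 had 0 and 77.

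Isoforms found in the same neuron were sometimes neighbours on the chromosome. Of 56 pairs of isoforms from the same cluster and neuron, 9 were next to each other among the 56 genes. Pcdhb17 and Pcdhb18, which are 10 bases apart, had 393 and 532 fragments in Neuron 1, but Pcdhb18 was at 0 in Neurons 2, 9 and 12 where Pcdhb17 was high. Pcdhb19 and Pcdhb20, which are 135 bases apart, had 835 and 1275 fragments in Neuron 16, whereas Neurons 5 and 11 had Pcdhb20 with 0 and 1 fragments of Pcdhb19. Pcdhb14 and Pcdhb15 had 63 fragments each in Neuron 8. Transcripts that run from one gene into the next were not distinguished in these counts.

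Calls between the types required an adjusted p below 0.01 together with a log2 fold change beyond 1.5 in either direction. By this standard edgeR called none of the isoforms, and 0 of 32628 genes (0%). At an unadjusted p under 0.05, edgeR listed 19 of the 48 isoforms with a fragment, against 12.8% of all genes tested. Of these 19, 10 had 10 or more fragments in just 1 classified neuron and 7 in just 2, so that these comparisons turned on 1 or 2 neurons. For Pcdhb16 the 2 neurons were of different type. Of the 10, 5 had no fragment in any other neuron and so entered the test only through the neuron that held them. The count of 19 is not evidence of a difference between the types. The exact permutation test listed 1 of the 48 at p under 0.05 (Pcdhb17), against 2.46% of all genes. In this test an isoform with fragments in only 1 or 2 classified neurons cannot reach 0.05. Pcdha3, in 1 Type-1 neuron, gave p = 0.438, and Pcdha12, in 2 Type-1 neurons, gave 0.175. The count of 1 in 48 is therefore not read as a result. The median difference in log2(FPKM + 1) was 0.00 over the 48 isoforms and 0.00 over all genes.

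The 12 isoforms with edgeR p under 0.05 and higher fitted levels in Type-2 neurons were Pcdha2, Pcdha9, Pcdha11, Pcdhac1, Pcdhb7, Pcdhb8, Pcdhb9, Pcdhb10, Pcdhb17, Pcdhb18, Pcdhb22 and Pcdhga2. The 7 with higher levels in Type-1 neurons were Pcdha3, Pcdha12, Pcdhb3, Pcdhb16, Pcdhb19, Pcdhgb5 and Pcdhga11. DESeq2 called Pcdhb17 alone among the 14 isoforms to which it gave an adjusted p, against 1.98% of genes, and it had replaced outlying counts of 24 isoforms before testing. Without that replacement and without its outlier filter DESeq2 called 6 of 33 isoforms, against 7.29% of genes, of which Pcdha3, Pcdhb8 and Pcdhb10 were each present in only 1 classified neuron.

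Of the 32 isoforms found in classified neurons, 16 were found only in Type-2, 8 only in Type-1 and 8 in both, while Pcdhb15 and Pcdhga8 were found only in the Unknown neuron. Over all genes found in these neurons, 16.5% were found only in Type-2 and 12.6% only in Type-1. Most of these 32 isoforms were found in 1 or 2 neurons, which leaves little room for both types, and there were more Type-2 neurons, so nothing is read from these counts. Type-2 neurons had 5 ± 3.32 isoforms (SD, n = 9, range 0 to 10) and Type-1 neurons 3.71 ± 1.60 (n = 7, range 2 to 6). The ranges overlapped, and the difference of 1.29 was smaller than the SD within Type-2. It was 0.661 without Neuron 1, 2.64 without the 6 neurons high in microglial markers and -0.492 when a single fragment counted as found. At day 0, Type-1 neurons held 3, 3 and 6 isoforms against 5 and 8 in Type-2 neurons, and at day 1 they held 2, 3 and 3 against 10, 8 and 6. At day 2 the order was the opposite, with 6 in the only Type-1 neuron against 2, 4, 0 and 2 in Type-2 neurons. The number was described without a test because it is a sum over chosen genes.

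By cluster, Type-2 neurons had 1.89 ± 1.05 beta isoforms and Type-1 neurons 1.14 ± 0.69. For the gamma cluster the means were 2 ± 1.41 and 2 ± 1.29, and for the alpha cluster 1.11 ± 1.17 and 0.571 ± 0.787 (SD). Both types had neurons with and without alpha isoforms. The summed gamma level was 10.8 ± 10 FPKM in Type-2 and 34.8 ± 58.2 FPKM in Type-1 neurons, where Neuron 18 alone reached 164 FPKM.

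The number of isoforms was also compared at equal depth. After each library was thinned to the 2280477 fragments of the shallowest, the mean was 3.73 isoforms per neuron (100 draws). Neuron 11 fell from 8 to 4.50 and Neuron 8 from 6 to 3.15, whereas Neuron 1 kept 9.39 and Neuron 14 kept 8. Neuron 12, the shallowest, had 6. Without the 6 neurons high in microglial markers the mean was 5.18 isoforms. Neurons 1 and 14, with the most isoforms after thinning, also had the highest summed neuron markers (1688 and 1666 FPKM), but Neuron 2, at 1286 FPKM, had 2 isoforms.

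Pairs of neurons shared few isoforms, and most of the sharing went through Pcdhgc4. The share was measured by the Jaccard index, the number of isoforms found in both neurons divided by the number found in either. Among the 120 pairs of classified neurons, 84 shared at least 1 isoform, and 28 shared 2 or more. When the C-type isoforms were set aside, 43 of the 120 pairs still shared 1. Pcdhgc4 alone joined 66 of all 136 pairs and Pcdhga12 joined 15.

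Pairs of the same type shared slightly more than pairs of different type, at 1.07 against 0.921 isoforms on average. Pcdhb17, the isoform with the lowest p between the types, was shared by 10 pairs of the same type and 0 of different type. Means without Pcdhb17 were not computed, so more sharing within a type beyond this isoform is not shown. The mean Jaccard index was 0.144 in 57 pairs of the same type and 0.116 in 63 pairs of different type, with medians of 0.125 and 0.111. It was 0.131 in the 21 Type-1 pairs (range 0 to 0.5) and 0.151 in the 36 Type-2 pairs (range 0 to 1). It ranged from 0 to 0.333 in pairs of different type, within the range of pairs of the same type. Pairs have neurons in common, so no test was made. With the 5 C-type isoforms left out, and Pcdhb17 still included, the means were 0.0962 and 0.0453. The difference of 0.0273 was 0.0127 when an FPKM of 1 counted as found, 0.0136 in thinned libraries and 0.0152 with a limit of 30 fragments.

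**Figure D5:**
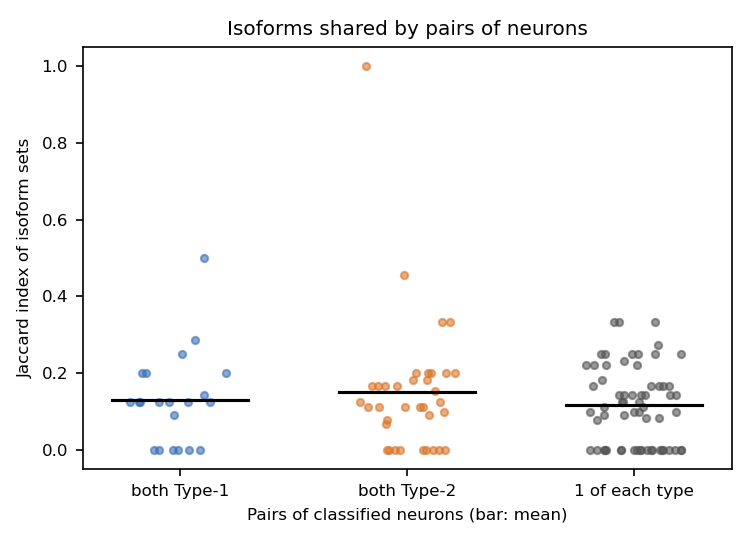
Jaccard index of the isoform sets (y axis) for pairs of Type-1 neurons (21 pairs), pairs of Type-2 neurons (36 pairs) and pairs with 1 neuron of each type (63 pairs), points spread sideways at random, with the mean as a bar. The means are 0.131, 0.151 and 0.116, and the point at 1 is the pair of Neurons 2 and 9.

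Neurons 2 and 9 had an index of 1, and the difference was 0.0114 when either was left out. Neurons 1 and 12 shared 5 isoforms, the most of any pair, namely Pcdhac2, Pcdhb7, Pcdhb17, Pcdhga6 and Pcdhgc4. Pcdhb17 joined 10 pairs, all of Type-2, whereas Pcdhb12 joined 2 pairs of the same type and 4 of different type. The pairs of highest index among Type-1 neurons were Neurons 5 and 16, at 0.5, which had Pcdhb20 and Pcdhgc4 in common.

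Of the pairs of the same type, 16 of 57 came from the same postnatal day, against 19 of 63 pairs of different type. Over all 136 pairs, the 16 with the Unknown neuron included, those of the same postnatal day had a mean index of 0.143 (40 pairs). Pairs from different days had 0.107 (96 pairs). Among classified neurons within days, pairs of the same type had a mean index of 0.206 (16 pairs) and pairs of different type 0.127 (19 pairs). These values include Pcdhb17. By day, the means were 0.158 and 0.161 at day 0, 0.212 and 0.129 at day 1, and 0.233 and 0.0715 at day 2, so the direction did not hold at day 0. The study recorded some neurons of each type from the same slice, and the labels do not give which. The Unknown neuron shared an isoform with 4 of the other 16, with a mean index of 0.0266.

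Outside the clusters, the delta protocadherins, which are encoded singly and not chosen at random, were more widely found. Of 10 such genes, 6 were found in 9 or more neurons, and the median was 9 neurons. edgeR listed 4 of the 10 at an unadjusted p under 0.05 (12.8% of all genes), all with higher levels in Type-2 neurons, and called none. The median difference in log2(FPKM + 1) was 0.49 over the list and 0.00 over all genes.

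Pcdh10, which guides axons and interacts with the actin regulator WAVE, was found in all 9 Type-2 neurons at 3.89, 7.95 and 16.3 FPKM (lowest, median and highest) and in 4 of 7 Type-1 neurons at 0, 0.325 and 8.05 FPKM. The groups overlapped through Type-1 Neuron 5. The difference in log2(FPKM + 1) was 2.38 (exact permutation test, p = 0.000962, adjusted p = 1), and edgeR gave a log2 fold change of 2.57 ± 0.98 (adjusted p = 0.213). Neuron 7, with no clustered isoform, was among the neurons with Pcdh10.

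Pcdh11x was found in 5 of 9 Type-2 neurons, at up to 3.79 FPKM with a median of 1.56, and in 0 of 7 Type-1 neurons, where the highest value was 0.0263 FPKM. edgeR gave a log2 fold change of 8.10 ± 2.18 (adjusted p = 0.183), and DESeq2 called it (adjusted p = 6.58e-05). The exact permutation test gave p = 0.0104 (adjusted p = 1). The groups overlapped, since 2 Type-2 neurons were at 0.

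Genes that control promoter choice were measured in most neurons. Of 20 regulators (CTCF, cohesin and its loaders, DNA methylation enzymes and related chromatin factors), 19 were found in 9 or more neurons. At an unadjusted p under 0.05, edgeR listed 0 of the 20 (12.8% of all genes) and DESeq2 likewise 0 (4.5% of all genes). The exact test listed 1 of the 20 (2.46% of all genes), Setdb1, a histone methyltransferase (difference 1.50, p = 0.0469, adjusted p = 1). Ctcf was 0 to 112 FPKM (median 9.20) and its log2 fold change was -1.86 ± 1.06 (edgeR adjusted p = 0.532). The median difference in log2(FPKM + 1) over the regulators was -0.27.

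Of 15 intracellular partners of protocadherins (focal adhesion kinases, the WAVE complex and others), 13 were found in 9 or more neurons, and edgeR listed 4 at an unadjusted p under 0.05, against 12.8% of all genes. Wasf1 and Axin1 had higher levels in Type-2 neurons, and Ptk2b and Ret, each found in 1 neuron, in Type-1. Axin1, the Wnt pathway scaffold that Pcdhgc3 binds, was found in 8 of 9 Type-2 neurons (median 4.66 FPKM, highest 7.81) and 1 of 7 Type-1 neurons (highest 0.282 FPKM). Its log2 fold change was 6.23 ± 1.76 in edgeR (adjusted p = 0.183), DESeq2 called it (adjusted p = 0.00141), and the exact test gave p = 0.00219 (adjusted p = 1). Type-2 Neurons 11 and 14 lay within the Type-1 range. The median difference over the partners was 0.24.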

How the data were processed

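Per the labels and methods, the authors trimmed reads with cutadapt 3.2, aligned them with STAR 2.7.7a to the GRCm38 genome and assigned fragments to genes with featureCounts, whose settings for strand and overlapping genes are not given in the sources used here. They deposited whole-number fragment counts and FPKM per gene; the FPKM equal count divided by gene length and column total. One labelled neuron (Neuron 10) has no column and was not analysed here.

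Type-2 was compared with Type-1 in edgeR 4.0.16 (quasi-likelihood, TMM, average dispersion) on the 32628 genes whose count was above 0 in any of the 17 neurons, with DESeq2 1.42.0 and an exact two-sided permutation test of log2(FPKM + 1) over 11440 splits as further tests. p-values were Benjamini-Hochberg adjusted over all genes. The smallest p that the exact test can give is 8.74e-05, so a single gene cannot pass its adjustment over 32628 genes alone. No gene passed that adjustment, so an isoform that failed it is not thereby shown to be alike in both types. Tests were run on simulated data first. Some neurons of each type came from the same slice, and animals are not given, so p-values measure only the spread between these neurons. Members and gene lists were chosen with earlier results of these data known. Named isoforms were the 5 C-type, those with edgeR p under 0.05 or a DESeq2 call, the 5 found in most neurons and the 5 of highest FPKM. Neighbouring pairs, the pattern of Neuron 17 and other low-count isoforms were described after their values were seen. No sequence of these genes is printed here.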

Additional observations from a re-analysis of the deposited data

Results flagged for a closer look

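Neuron 18 stood apart from the other Type-1 neurons in the fragments of all clustered protocadherins, at 1087 CPM against a Type-1 median of 149, and in the summed gamma level, at 164 FPKM against a median of 11.1. In both, its distance from the next neuron was a large part of the whole range (0.746 and 0.809). Neuron 4 stood apart among Type-1 neurons in the summed alpha level, at 15.1 FPKM against a median of 0.0457, and Neuron 1 among Type-2 neurons, at 16.8 FPKM against a median of 1.42. These were 4 such neurons' values in 16 sets of values examined with Dixon's test for a single outlying value, in which chance alone gives about 1 in 20 for normally distributed values. These sums are skewed, with most neurons near the low end, so that rate does not apply to them, and both values of Neuron 18 come largely from the same Pcdhgc4 fragments.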

How the results depend on the processing

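Counts of isoforms kept within 1 SD of the value above under every setting tried but one: with 1 fragment as the limit, a neuron had 8.35 isoforms. Among the 56 isoforms the number called between types was 1 of 14 tested in DESeq2 with default settings (322 of 16300 genes), 6 of 33 in DESeq2 without both outlier replacement and Cook's filter (1498 of 20555 genes), and 0 in every edgeR setting, including 2 chosen after seeing the data (dispersions estimated per gene, and without the 6 neurons high in microglial markers). Isoforms with edgeR p under 0.05 were 19 of 48 (12.8% of all genes). They were 2 of 8 with 10 fragments required in 3 neurons (11.1% of genes), 12 of 48 with day as a factor (7.19%), 27 of 48 with dispersions estimated per gene (20.3%) and 10 of 48 without the neurons high in microglial markers (9.31%). Leaving out each of the 16 neurons in turn gave 0 isoforms called in each case, 0.661 to 1.91 for the difference in isoforms per neuron and 0.0114 to 0.04 for the difference in Jaccard index. The difference in log2(FPKM + 1) of 9 of the 26 named isoforms changed sign when 1 neuron was left out. The ranges were -0.01 to 0.26 for Pcdha2, -0.01 to 0.33 for Pcdha9, -0.63 to 0.16 for Pcdhb12 (0.12 and 0.16 without Neurons 5 and 17), -0.72 to 0.33 for Pcdhb16, -0.01 to 0.53 for Pcdhb18, -0.65 to 0.01 for Pcdhb19, -0.48 to 0.11 for Pcdhga11, -0.08 to 0.01 for Pcdhgc3 and -0.83 to 0.37 for Pcdhgc4. Of 416 values with 1 neuron left out, 401 kept their sign, 10 changed it and 5 were 0.00, those of Pcdha3, Pcdhac1, Pcdhb3, Pcdhb8 and Pcdhb10 without the neuron that held them. The 52 values with another pseudocount or in CPM kept their sign. None of the 468 passed the adjusted threshold, which no gene passed in the main setting of the exact test. No paired analysis was possible because replicate numbers were given in the order of the samples and tie no neurons together. A fit of DESeq2 with each neuron left out was not run.

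At low counts, 65 values lay between 1 and 9 fragments, and 3 fragments are 1.32 CPM in the shallowest library. Whether depth set these low values was not tested.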
